A study of Mus musculus with 16 samples.

Results

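Mitochondrial carriers and uncoupling proteins were described in heart ventricles of 8-week-old mice that lacked Rbpms in heart muscle cells and in controls. The members were taken by name: every row of the count table whose symbol begins with Slc25a, plus Ucp1, Ucp2 and Ucp3, without pseudogenes. This gave 50 genes, 47 Slc25a genes and 3 Ucp genes, of 54108 rows with a gene symbol. The naming rule uses no measured value. Of the 50 genes, 42 had enough counts to be tested and 8 did not.

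Rbpms encodes an RNA-binding protein. Control mice were Rbpms fl/fl, with both Rbpms alleles floxed and no Cre. The cardiac knockout (cKO) mice were Myh6-Cre, Rbpms fl/fl, so they carried the same floxed alleles and Cre under the heart muscle promoter Myh6, which does not drive it in the other cells of the ventricle. Each genotype had 4 libraries of polyadenylated RNA, and replicate 3 of each was female and the other 3 male. The labels do not say whether tissue of several mice was pooled, so the p-values speak only of the variation from library to library. The series holds 16 samples, and its 8 newborn libraries were not analysed here. Only the cKO mice carried Cre, so the loss of Rbpms and the presence of Cre cannot be told apart in these libraries. The question here is which carrier genes differ in level between these genotypes.

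Carriers of the Slc25 family sit in the inner mitochondrial membrane, which is otherwise tight to ions and metabolites, and exchange nucleotides, phosphate, amino acids, carboxylic acids, acylcarnitines and cofactors between the matrix and the cytosol. In heart muscle they export ATP and bring in ADP, phosphate and fuel for oxidation. The uncoupling proteins belong to the same family. Ucp1 lets protons return to the matrix without making ATP and is known from brown fat. Ucp3 is known from skeletal muscle and heart, where fatty acids raise it, and Ucp2 is found in many cell types.

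Libraries held 20190334 to 24540433 counts. Rbpms itself lay at 101.6 to 193 CPM (counts set to a common library size with TMM factors) in controls and at 26.9 to 38.8 in cKO, a log2 fold change of -2.33 ± 0.20 (standard error, SE; adjusted p = 3.54e-05). The ventricle is a mixture, and fewer cells of a type and less RNA per cell cannot be told apart in these libraries. Cardiomyocyte markers summed to 35670 to 46310 CPM in controls and 29930 to 35850 in cKO, and 2 of 8 fell (Tnni3 and Ryr2). Fibroblast markers summed to 1211 to 1467 CPM in controls and 2455 to 3021 in cKO, and 7 of 7 rose. None of 6 endothelial markers passed the test, and 1 of 6 macrophage markers rose (Mrc1). Of 6 pericyte and smooth muscle markers 1 fell (Kcnj8), and none of 6 tested erythroid and 4 tested adipocyte markers was called. Control replicate 4 held Myh4, the fast myosin of skeletal muscle, at 58.2 CPM, against at most 0.308 in the other libraries. The 6 skeletal muscle markers summed to 815.5 to 1236 CPM in controls and 488 to 568 in cKO, nearly all of it Ckm, which heart muscle also expresses and which fell.

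Among the 42 tested members, 13 differed between genotypes (31.0%, called in edgeR's quasi-likelihood test at a Benjamini-Hochberg adjusted p under 0.05). Over all 16051 tested genes 19.3% were called. Of the members 3 rose (7.14%, against 9.64% of all genes) and 10 fell (23.8%, against 9.64% of all genes). The median log2 fold change was -0.09 over the members and 0.01 over all genes. Only 2 tested members changed by more than 2-fold, Ucp2 upward and Ucp3 downward, and Slc25a13 and Slc25a20 were the other two past 1.5-fold. The CPM ranges of the genotypes did not overlap for 17 members (40.5%, against 23.5% of all genes), 12 lower and 5 higher in cKO. The members are abundant genes, and falls were more frequent at high levels. Of genes with a mean of at least 100 CPM 22.4% fell, and 6 of the 11 members at that level did. From 10 to 100 CPM 11.9% of all genes and 4 of 23 members fell, and none of the 8 members under 10 CPM was called. Of the 8 cardiomyocyte markers 2 fell, with a median log2 fold change of -0.21 over all 8. Their sums overlapped between genotypes, at 35670 to 46310 CPM in controls and 29930 to 35850 in cKO. The part of cardiomyocyte content in the falls was not tested.

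**Figure D1:**
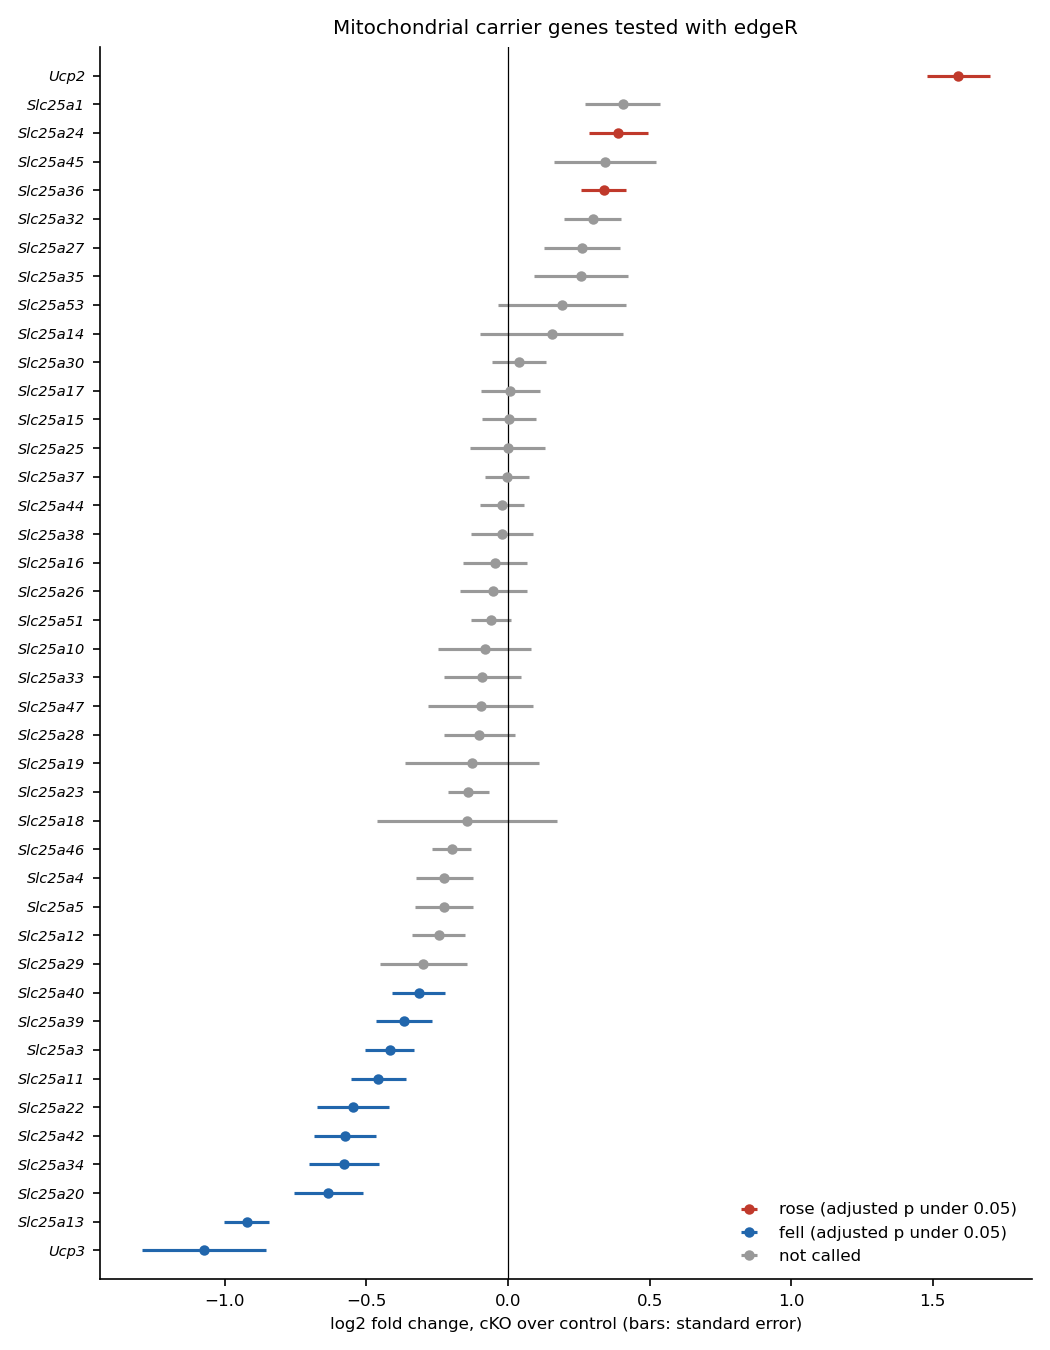
The log2 fold change (cKO over control) of the 42 tested members, with bars of 1 SE, in order of size. Ucp2 stands alone at the top at 1.59, Ucp3 and Slc25a13 are lowest at -1.07 and -0.92, and most members lie within 0.5 of 0.

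Promoter windows are shown as examples for neighbours in function with unlike calls. Ucp2 rose and Ucp3 fell, and Slc25a13 fell while Slc25a12 was not called. The windows of other related members with unlike calls, such as Slc25a34 and Slc25a35, are not shown. Each window runs from 250 bases before to 50 after the start of the RefSeq gene (GRCm38.p6). The windows lie at chr7:100493108-100493407 (Ucp2, plus strand), chr7:100472741-100473040 (Ucp3, plus strand), chr6:6217124-6217423 (Slc25a13, minus strand) and chr2:71367706-71368005 (Slc25a12, minus strand), each printed 5′ to 3′ on the gene's strand. Capitals mark AGGTCA, the half-site bound by nuclear receptors of the PPAR and estrogen-related receptor kind, and CACGTG, the E-box bound by Myc and its relatives, on either strand.
Ucp2: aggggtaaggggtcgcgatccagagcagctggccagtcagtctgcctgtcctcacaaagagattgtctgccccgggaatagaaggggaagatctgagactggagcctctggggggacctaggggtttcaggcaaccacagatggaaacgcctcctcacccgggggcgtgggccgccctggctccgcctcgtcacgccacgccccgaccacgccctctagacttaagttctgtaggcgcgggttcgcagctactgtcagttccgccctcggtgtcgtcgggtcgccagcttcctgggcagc
Ucp3: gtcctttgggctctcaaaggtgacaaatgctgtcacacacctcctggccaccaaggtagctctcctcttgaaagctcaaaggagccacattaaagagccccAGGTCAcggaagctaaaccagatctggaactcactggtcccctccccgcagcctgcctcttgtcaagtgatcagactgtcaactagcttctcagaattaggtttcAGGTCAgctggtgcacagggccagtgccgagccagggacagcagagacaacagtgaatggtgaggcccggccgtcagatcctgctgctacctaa
Slc25a13: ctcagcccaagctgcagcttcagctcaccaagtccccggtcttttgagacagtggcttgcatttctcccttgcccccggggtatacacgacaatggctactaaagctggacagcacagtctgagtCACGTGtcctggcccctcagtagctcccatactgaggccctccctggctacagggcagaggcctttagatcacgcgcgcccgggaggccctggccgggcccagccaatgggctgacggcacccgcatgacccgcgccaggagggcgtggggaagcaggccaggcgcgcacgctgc
Slc25a12: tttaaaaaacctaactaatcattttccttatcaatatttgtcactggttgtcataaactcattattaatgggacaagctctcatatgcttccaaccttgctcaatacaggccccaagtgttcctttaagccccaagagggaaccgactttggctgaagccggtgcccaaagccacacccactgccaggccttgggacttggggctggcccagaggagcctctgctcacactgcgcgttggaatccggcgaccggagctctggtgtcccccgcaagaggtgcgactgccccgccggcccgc
The Ucp3 window holds AGGTCA at 149 and 44 bases before the start, and the Slc25a13 window holds CACGTG at 125 bases before it. The Ucp2 and Slc25a12 windows hold neither motif. AGGTCA was found in 16.3% of 32851 windows of all genes and in 6 of 49 windows of the 39 members that have one (12.2%). These were windows of Slc25a34, Slc25a39, Slc25a45, Slc25a47, Ucp1 and Ucp3. CACGTG was found in 7.15% of all windows and in 8 of 49 member windows (16.3%), among them those of Slc25a13 and Slc25a36. The longer motif TNAAGGTCA, which contains AGGTCA and is known from estrogen-related receptors, was in 1.28% of all windows and in 0 of 49. All 13 called members have a window, and 3 of them hold AGGTCA and 2 CACGTG. A match describes the letters of a window and shows no binding.

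Ucp2 rose 3.01-fold in cKO and was the only one of the 42 tested members past 2-fold upward. Its gene lies on chromosome 7 at 100493337 to 100502020 (plus strand, GRCm38). Ucp2 read 125, 165, 125 and 131 CPM in control replicates 1 to 4 and 429, 444, 349 and 423 CPM in cKO replicates 1 to 4. The cKO libraries all lay far above the highest control. The mean went from 137 ± 19.0 CPM (SD, n = 4) to 411 ± 42.6 (SD, n = 4), a log2 fold change of 1.59 ± 0.11 (SE; adjusted p = 2.47e-05). Leaving out any 1 library gave 1.55 to 1.69. The gene's exons overlap those of Dnajb13 on the other strand by 305 bases, and Dnajb13 held 281 counts over all libraries. Fibroblast markers, which all rose, moved with it, and macrophage markers summed to 123 to 207 CPM in controls and 202 to 234 in cKO. Their part in the rise of Ucp2 was not tested.

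Ucp3 moved the other way. It lies upstream of Ucp2 on the same strand, at 100472990 to 100486432 of chromosome 7, and 6904 bases separate the genes. Its controls read 158, 177, 87.4 and 151 CPM and its cKO libraries 51.0, 94.2, 58.8 and 68.8 CPM. The female control (replicate 3) was far below the male controls and below cKO replicate 2, so the groups overlapped at that point only. Ucp3 fell from 143 ± 38.9 to 68.2 ± 18.8 CPM (SD, n = 4 each), 2.10-fold, with a log2 fold change of -1.07 ± 0.22 (adjusted p = 0.00531). In males alone it was -1.18 (adjusted p = 0.00109). Without control replicate 4, the library with skeletal muscle myosin, it was -1.05 (adjusted p = 0.0152).

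Set per length of exon, Ucp3 was the more abundant of these neighbours in controls and Ucp2 in cKO. Their counts were nearly equal in controls, so the order there rests on the lengths used. These were 6989 bases of exon for Ucp2 and 3135 for Ucp3, and which transcripts the libraries held was not tested. Ucp2 made up 26.2% to 39.1% of the summed RPKM (CPM per kilobase of exon) of Ucp2 and Ucp3 in the 4 controls and 67.9% to 79.1% in the 4 cKO libraries. With the longest transcript in place of all exons as the length, the shares were 32.6% to 46.8% and 74.3% to 83.8%. The log2 ratio of Ucp2 to Ucp3 counts within a library was -0.03 ± 0.38 in controls and 2.62 ± 0.34 in cKO (SD, n = 4), a 6.30-fold difference. All 4 cKO ratios lay above all 4 control ratios (exact permutation p = 0.0286, two-sided, the smallest that 4 against 4 libraries can give). Adjusted over the 10 pairs of related members compared, p was 0.0952.

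Ucp1, the uncoupling protein of brown fat, was nearly confined to 1 library. It held 0 counts in all 4 controls and 122, 4, 0 and 4 counts in cKO replicates 1 to 4, so 93.8% of its 130 counts came from cKO replicate 1, at 5.05 CPM. A count of 0 allows up to 3 counts, which is 0.126 to 0.157 CPM in the control libraries and covers counting error only. The filter on low counts left Ucp1 untested. With no filter its adjusted p was 6.14e-06, and 0.131 without cKO replicate 1, an alternative chosen after seeing the data. In that library Zic1 and Lhx8, markers of brown fat, had 0 counts, and Elovl3 read 0.248 CPM, Dio2 8.36 and Prdm16 28.3. Cidea read 29.4 CPM there and 27.25 to 29.31 CPM in the other cKO libraries. Dio2 was higher in cKO replicate 3, at 17.0 CPM, a library with 0 Ucp1 counts. Between genotypes Dio2 and Cidea rose and Prdm16 fell, and Elovl3, Zic1 and Lhx8 were too low to test. Summed over all 6 brown fat markers, controls read 49.7 to 62.3 CPM and cKO libraries 60.0 to 70.2 CPM. General adipocyte markers summed to 1.99 to 11.3 CPM in controls and 3.40 to 27.9 in cKO. The highest sum was that of cKO replicate 4, which held 4 Ucp1 counts. There the adipocyte markers Adipoq and Plin1 read 5.29 and 6.53 CPM. They read 1.95 and 2.61 CPM in cKO replicate 1, and 2.44 and 2.53 CPM in control replicate 3. The part of fat tissue in the Ucp1 counts was not tested.

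**Figure D2:**
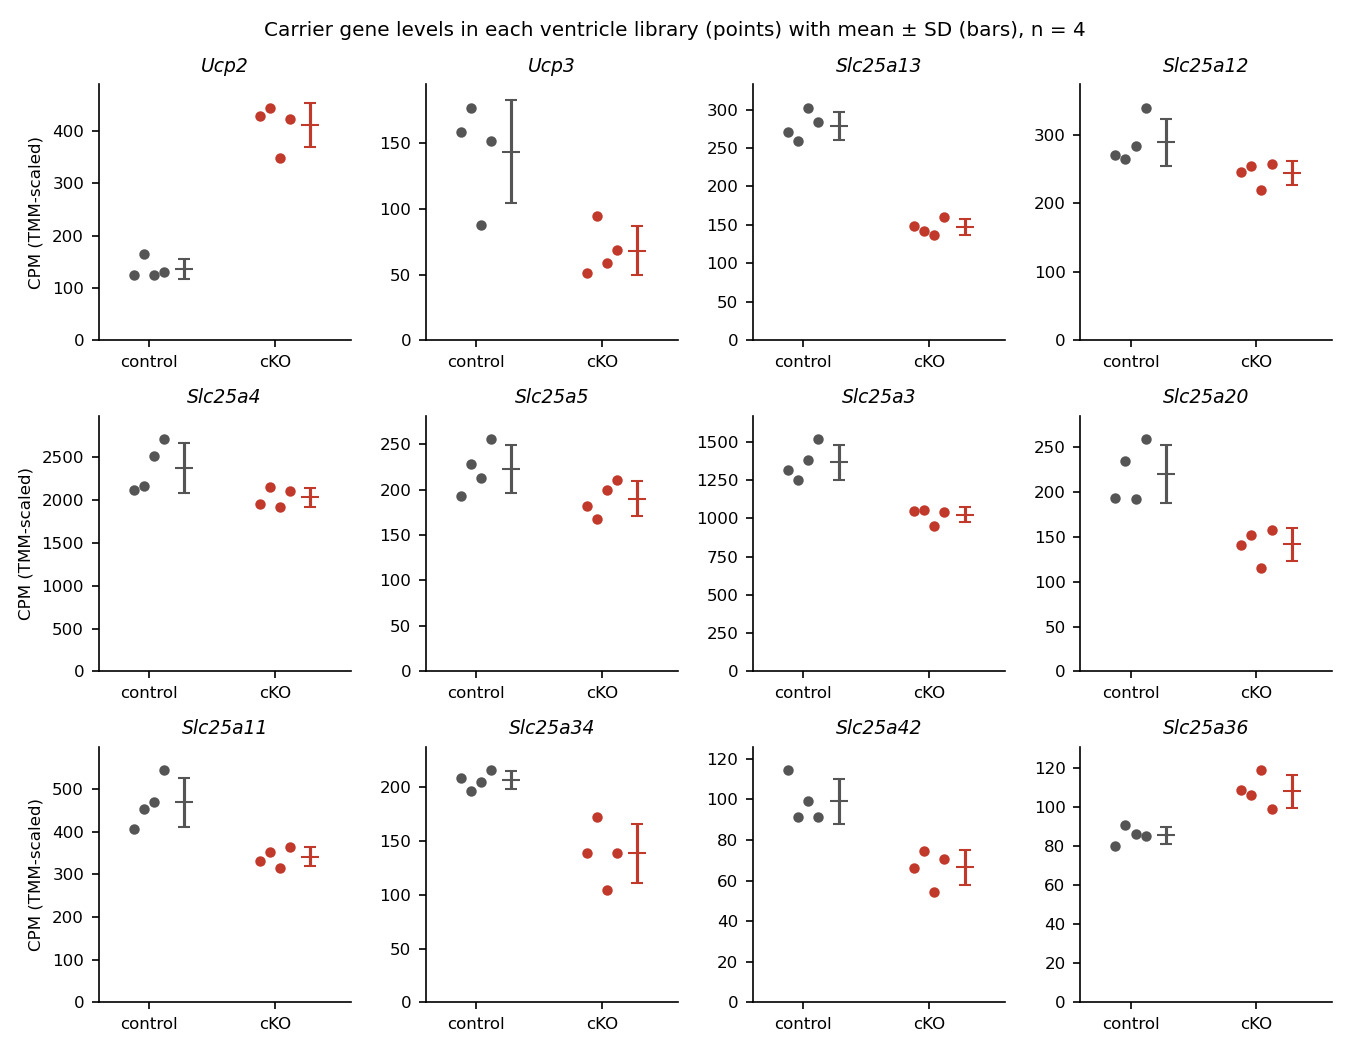
CPM (vertical axes, each from 0) in each of the 8 libraries (points) by genotype, with mean ± SD beside them (bars, n = 4), for 12 members. Ucp2 is 3.01-fold higher in cKO with a wide gap between the genotypes, Slc25a13 is lower in cKO without overlap, and Slc25a4 overlaps.

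The aspartate and glutamate carriers supply the malate-aspartate shuttle, which brings reducing equivalents of cytosolic NADH into the matrix. Its mitochondrial exchanger has 2 isoforms, Slc25a12 (aralar) and Slc25a13 (citrin). Slc25a13, on chromosome 6 at 6041218 to 6217173 (minus strand), read 270, 259, 302 and 284 CPM in controls and 148, 142, 137 and 161 in cKO. The groups were widely apart. The mean fell from 279 ± 18.6 to 147 ± 10.3 CPM (SD, n = 4 each), 1.90-fold, with a log2 fold change of -0.92 ± 0.08 and an adjusted p of 4.06e-05.

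Slc25a12, on chromosome 2 at 71271063 to 71367749, did not pass the test. Controls read 270, 264, 283 and 339 CPM and cKO libraries 245, 254, 220 and 257 CPM. The ranges did not overlap, but the gap was narrow, with a log2 fold change of -0.24 ± 0.09 and an adjusted p of 0.0943. The isoforms held nearly equal counts in controls, with a log2 ratio of Slc25a12 to Slc25a13 of 0.05 ± 0.15, and in cKO the ratio was 0.73 ± 0.08 (SD, n = 4). This 1.61-fold difference had no overlap between genotypes (exact permutation p = 0.0286, adjusted 0.0952 over the 10 pairs).

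Slc25a11, the oxoglutarate and malate carrier that is the other antiporter of the shuttle, fell 1.37-fold. Its libraries read 406, 453, 470 and 545 CPM in controls and 332, 353, 314 and 365 CPM in cKO. All controls were above all cKO libraries (log2 fold change -0.46 ± 0.10, adjusted p = 0.00631). The gene shares 189 exonic bases with Rnf167 on the other strand. Slc25a22, a glutamate carrier, fell 1.46-fold, from 55.3, 58.1, 42.3 and 48.7 CPM to 33.2, 40.5, 28.2 and 38.1 CPM (-0.55 ± 0.13, adjusted p = 0.0109). Its lowest control lay just above its highest cKO library. The related Slc25a18 was below 1 CPM in every library (-0.15 ± 0.32).

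The enzymes on either side of these carriers were counted as a list. Of 8 shuttle and glutamate genes 5 fell and 0 rose, with a median log2 fold change of -0.35. Over all tested genes 9.64% fell and 9.64% rose, and of those with a mean of at least 100 CPM 22.4% fell. Got1, the cytosolic aspartate aminotransferase, went from 760.4 ± 109 to 387 ± 19.8 CPM (log2 fold change -0.97, adjusted p = 0.000107), a drop of the size seen for Slc25a13. Got2, its mitochondrial counterpart, fell by 0.45 on the log2 scale, Gpd2 by 0.50 and Glud1 by 0.29, and Mdh2 was also called.

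Slc25a20 carries acylcarnitines into the matrix and carnitine out, a step that long-chain fatty acids need before oxidation. Its gene lies on chromosome 9 at 108662088 to 108684641 (plus strand). Controls read 194, 234, 192 and 259 CPM and cKO libraries 141, 152, 116 and 158 CPM. The groups were apart, with the lowest control well above the highest cKO library. Slc25a20 fell from 220.0 ± 32.7 to 142 ± 18.7 CPM (SD, n = 4 each), 1.55-fold, with a log2 fold change of -0.64 ± 0.12 and an adjusted p of 0.00368.

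Other genes of the carnitine shuttle and known targets of PPAR-alpha, the nuclear receptor for fatty acids, were counted too. Of the 18 tested 10 fell and 0 rose, and their median was -0.50. Over all tested genes 9.64% changed in each direction, and of those with a mean of at least 100 CPM 22.4% fell. Acadm, which encodes the medium-chain acyl-CoA dehydrogenase, fell by 0.70 on the log2 scale (adjusted p = 0.000751). Ehhadh of peroxisomal fatty acid oxidation fell by 0.98, and the carnitine importer Slc22a5 fell by 0.90. The thioesterase Acot1, low in both groups, fell by 2.09. Ppara itself fell from 71.8 ± 7.44 to 45.3 ± 3.31 CPM (log2 fold change -0.66, adjusted p = 0.000509). Of the 12 regulators of carrier genes counted, 3 fell (Ppara, Ppargc1a and Ppargc1b) and 1 rose (Myc, by 1.12 on the log2 scale).

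The carriers of oxidative phosphorylation were the most abundant members. Slc25a4, the heart form of the adenine nucleotide translocase that exchanges ATP for ADP, had the highest level at 1008 RPKM in controls (SD 122, n = 4). It was followed by Slc25a3, the phosphate carrier, at 246 ± 20.6 RPKM, Slc25a11 at 221 ± 27.3 and Slc25a5, the widely expressed translocase, at 135 ± 16.0. The control ranges of Slc25a3 and Slc25a11 overlapped, but within each of the 8 libraries Slc25a3 was the higher per length of exon. Slc25a3, Slc25a4 and Slc25a5 together made up 64.8% of the summed RPKM of all members in controls and 65.6% in cKO.

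Slc25a3 fell modestly and evenly. Controls read 1315, 1252, 1382 and 1519 CPM and cKO libraries 1045, 1057, 950.5 and 1039 CPM. No cKO library reached the lowest control, and the fall was 1.34-fold (log2 fold change -0.42 ± 0.09, adjusted p = 0.00512). The gene lies on chromosome 10 at 91116574 to 91124059.

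Neither translocase passed the test. Slc25a4 read 2109, 2159, 2510 and 2711 CPM in controls and 1950, 2148, 1918 and 2104 in cKO, and the ranges overlapped (-0.22 ± 0.10, adjusted p = 0.147). Slc25a5 read 193, 228, 213 and 256 CPM in controls and 182, 168, 199 and 211 in cKO, also with overlap (-0.23 ± 0.10, adjusted p = 0.150). Their ratio within a library differed by 0.01 on the log2 scale (exact permutation p = 0.943). Slc25a5 has processed pseudogenes, and the treatment of reads with several alignments is not given in the sources used here, so its counts are less certain. Of 10 partners in ATP export and energy transfer 5 fell and 0 rose. Over all tested genes 9.64% changed in each direction, and of those with a mean of at least 100 CPM 22.4% fell. The partners that fell included Ppif, the cyclophilin of the permeability transition, by 0.76 on the log2 scale, and the creatine kinase Ckm by 0.81. The ATP synthase subunits Atp5a1 and Atp5b were also among them.

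**Figure D3:**
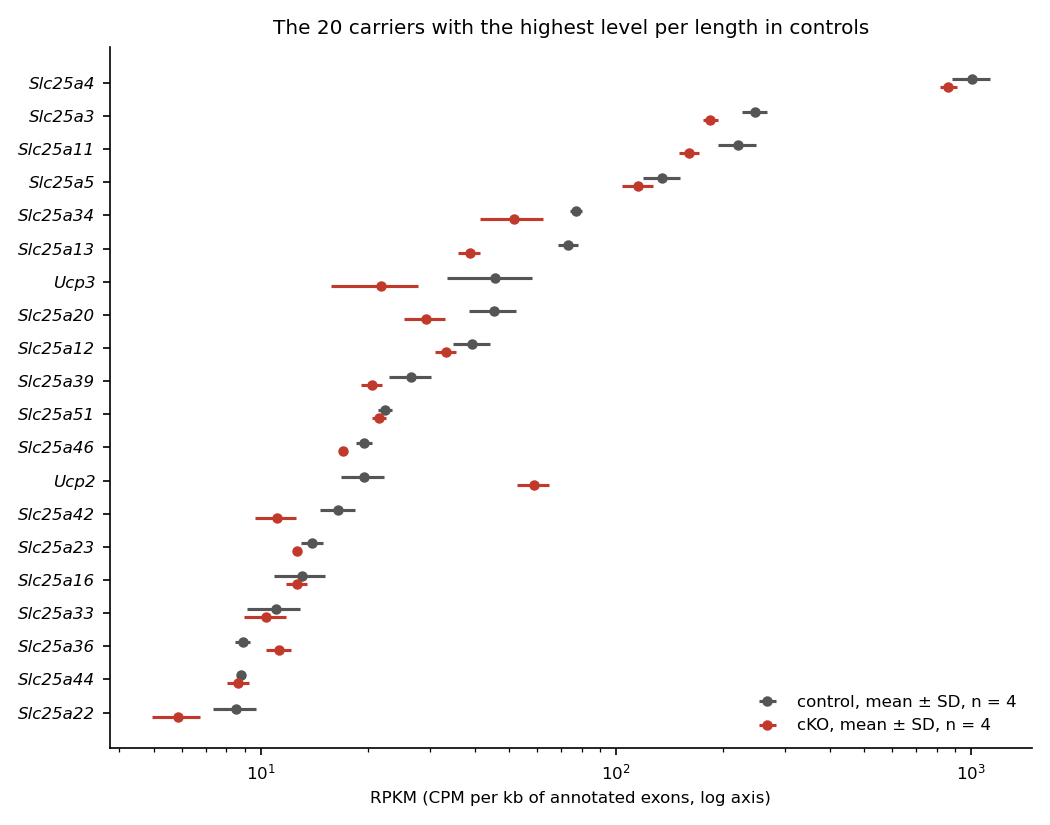
Level per length (RPKM, log axis) of the 20 members highest in controls, for control and cKO (means, bars of 1 SD, n = 4 each), in order of the control level. Slc25a4 is highest at 1008 RPKM in controls, and by union exon length Ucp2 moves from rank 13 in controls to rank 5 in cKO.

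Further carriers of nucleotides and cofactors moved in both directions. Slc25a42, which brings coenzyme A into the matrix, read 115, 91.1, 99.4 and 91.2 CPM in controls and 66.0, 74.7, 54.5 and 70.7 CPM in cKO. The groups were apart, and the fall was 1.49-fold (-0.58 ± 0.11, adjusted p = 0.00355). Slc25a36, a pyrimidine nucleotide carrier, was higher in every cKO library. It read 80.1, 90.5, 86.3 and 84.8 CPM in controls and 109, 106, 119 and 98.6 CPM in cKO, a 1.26-fold rise (0.34 ± 0.08, adjusted p = 0.0106). Its relative Slc25a33 was not called (-0.09 ± 0.14).

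Slc25a24, a calcium-regulated carrier of ATP-Mg and phosphate, rose 1.31-fold, from 14.8, 15.6, 15.2 and 11.9 CPM to 19.0, 17.8, 18.6 and 19.8 CPM. The groups did not overlap (0.39 ± 0.10, adjusted p = 0.0220), but the call was lost without cKO replicate 1 (adjusted p = 0.0579) or replicate 4 (adjusted p = 0.0560). Its relatives Slc25a23 and Slc25a25 were not called (-0.14 ± 0.07 and 0.00 ± 0.13). Slc25a51, the NAD+ carrier, was close to level, with 118 to 131 CPM in controls and 112 to 125 in cKO.

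Slc25a34, a carrier whose substrate is not settled, lay at 77.3 ± 2.99 RPKM in controls, beside Slc25a13 at 73.4 ± 4.89, and their control ranges overlapped. By union exon length it had rank 5 among the members, and rank 7 with the longest transcript as the length. It read 208, 196, 205 and 216 CPM in controls and 138, 172, 104 and 139 CPM in cKO. The controls were tightly grouped, the cKO libraries were spread, and the groups did not meet (1.49-fold lower, -0.58 ± 0.12, adjusted p = 0.00685). Its closest relative Slc25a35 was not called (0.26 ± 0.17), and the log2 ratio of the pair was 4.66 ± 0.28 in controls and 3.79 ± 0.10 in cKO (SD, n = 4; exact permutation p = 0.0286, adjusted 0.0952 over the 10 pairs). Over all 10 pairs, 3 had ratios that did not overlap, and none passed an adjusted p under 0.05. With 0.0286 as the smallest p and 10 pairs, 3 separate pairs could not have passed, so the adjusted values say little.

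**Figure D4:**
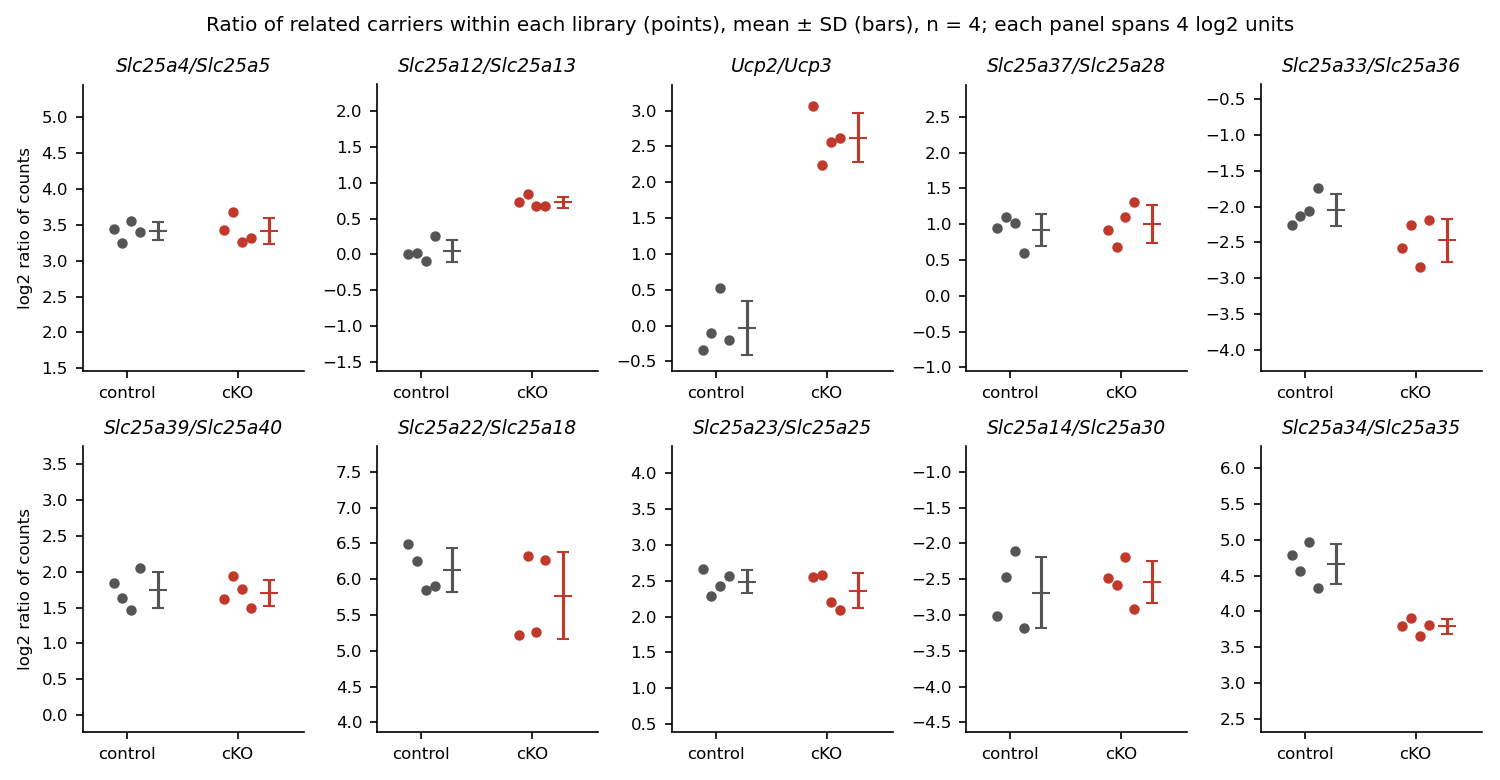
The log2 ratio of counts of related members within each library (points, with mean ± SD as bars), control against cKO, for the 10 pairs compared. Ucp2 over Ucp3 moves by 2.66, Slc25a12 over Slc25a13 by 0.68 and Slc25a34 over Slc25a35 by -0.87, and Slc25a4 over Slc25a5 by 0.01.

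Both glutathione carriers fell by small amounts. Slc25a39, a glutathione importer, read 75.5, 64.0, 66.9 and 85.8 CPM in controls and 56.3, 62.0, 55.4 and 52.7 CPM in cKO. The fall was 1.29-fold with a narrow gap (-0.37 ± 0.10, adjusted p = 0.0221). The call was lost on leaving out control replicate 1 or cKO replicates 1, 3 or 4 (adjusted p 0.0553 to 0.0666). Slc25a40, its paralogue, read 21.0, 20.5, 24.2 and 20.8 CPM in controls and 18.3, 16.2, 16.4 and 18.7 CPM in cKO (-0.32 ± 0.09, adjusted p = 0.0350). Its call, that with the highest adjusted p of the 13, was lost on dropping any of control replicates 1 and 3 and cKO replicates 1 to 3 (adjusted p 0.0525 to 0.0937). The mitoferrins Slc25a37 and Slc25a28, which import iron, were not called (0.00 ± 0.08 and -0.10 ± 0.13).

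The remaining 29 tested members did not pass the test. Their log2 fold changes lay between -0.30 and 0.40, with SEs of 0.07 to 0.32. A p above the threshold does not show that these genes were alike in both genotypes. Slc25a1, the citrate carrier (0.40 ± 0.13, adjusted p = 0.0509), Slc25a32, a carrier of folate and FAD (0.30 ± 0.10, adjusted p = 0.0587), and Slc25a46, an outer membrane protein that acts on mitochondrial shape (-0.20 ± 0.07, adjusted p = 0.0671), came closest. Their libraries did not overlap between genotypes, nor did those of Slc25a12 and Slc25a29. All 6 tested carriers of other amino acids and of the methyl donor, and all 3 relatives of the uncoupling proteins, were among those not called. The 7 untested members other than Ucp1 (Slc25a2, Slc25a21, Slc25a31, Slc25a41, Slc25a43, Slc25a48 and Slc25a54) had at most 22 counts in any library.

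Carriers reach the inner membrane through the TIM22 pathway, and 13 genes of that pathway were counted. Of these 2 fell and 1 rose, and the median log2 fold change was 0.01. Agk, a subunit of the TIM22 complex, fell by 0.57 on the log2 scale and the receptor Tomm70a by 0.25, and Timm22, the channel, rose by 0.39. Among 24 genes of other transport across mitochondrial membranes 7 fell and 3 rose. Vdac3, a porin of the outer membrane, fell by 0.46, and Mpc2, a subunit of the pyruvate carrier, by 0.44. Over the 8 partner lists 43 of 113 tested genes fell (38.1%) and 6 rose (5.31%), against 9.64% of all genes in each direction. Of all genes with a mean of at least 100 CPM 22.4% fell.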

How the data were processed

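Polyadenylated RNA of 8-week ventricles was prepared with a stranded kit, per the labels' protocols. The authors deposited a table of whole-number read counts, with 54132 rows named by gene symbol and a column for each of the 8 libraries. Tools in the submitters' processing notes are HISAT2 2.0.4, featureCounts 1.6.0, FastQC 0.11.4 and edgeR 3.30.3, and builds are GRCm38 and mm10. How strand and reads with several alignments were counted, and the annotation release, is not given in the sources used here, so values of genes that overlap others or have near copies are uncertain. The 24 rows with a number for a symbol (0.115% to 0.132% of counts) were left out.

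Genotypes were compared by edgeR's quasi-likelihood test (edgeR 4.0.16 with limma 3.58.1, R 4.3.3) in a model of genotype alone. Counts were TMM-scaled and filtered by filterByExpr, and two-sided p-values of all 16051 genes were adjusted by Benjamini-Hochberg, with calls at an adjusted p under 0.05. CPM uses TMM-scaled library sizes. RPKM divides CPM by the union exon length of GENCODE M21. Log2 ratios of related members used counts plus 0.5 and an exact permutation over the 70 relabellings of the libraries. The upper limits given for libraries without counts cover counting error only. On simulated data of 16051 genes for cKO against control, the test found 47.8% of 67 genes altered by 1.5-fold, 73.1% of 67 altered by 2-fold and 95.5% of 66 altered by 4-fold, and 10 of its 154 calls were false.

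Members named with every library's value were all called ones plus a set of major carriers, and up to 4 genes with the smallest adjusted p were taken from each partner list. Some of the genes this takes are not reported here. The members and lists were chosen with earlier results of these data known. Promoters are from RefSeq (GRCm38.p6). Alternatives were other scalings, filters, DESeq2 1.42.0, limma-voom, sex as a covariate, males only, no mitochondrially encoded genes, and each library left out.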

Additional observations from a re-analysis of the deposited data

Results flagged for a closer look

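In 7 of the 85 sets of 4 libraries examined, the highest or lowest library lay apart from the other three by more than Dixon's 95% critical share of the range. Chance alone gives such a library in about 5% of sets. The 85 sets were those of the tested members and that of Ucp1 in cKO, which was added to them and is among the 7. All sets share the same 8 libraries, so they are not independent of each other. Ucp2 read 165 CPM in control replicate 2, above the other controls and below every cKO library. Slc25a40 read 24.2 CPM in control replicate 3, which is among the libraries whose removal costs that gene its call. Slc25a25 read 15.2 CPM in control replicate 2. Control replicate 4, the library with skeletal muscle myosin, was highest for Slc25a29 (9.15 CPM) and Slc25a44 (32.5 CPM). Of the members that fell, Slc25a3, Slc25a11, Slc25a20, Slc25a34 and Slc25a39 also had their highest control there, though not past that share. Ucp3, Slc25a13, Slc25a22, Slc25a40 and Slc25a42 did not. Without this library the former had smaller log2 fold changes, in that order -0.37, -0.38, -0.55, -0.56 and -0.28. All kept their calls, with adjusted p at most 0.0496. Slc25a46 was lowest in cKO replicate 2 (89.0 CPM). Ucp1 read 5.05 CPM in cKO replicate 1 and at most 0.176 CPM in the other cKO libraries.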

How the results depend on the processing

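The 13 called members were refitted in 17 alternatives each. Of these 221 fits 14 lost the call, all for Slc25a24, Slc25a39 or Slc25a40, and none changed direction. The other 10 called members kept their calls in all 17. Scaling by total counts alone gave 5 members higher and 9 lower, and the stricter filter (at least 1 CPM in 4 libraries) gave 5 higher. Total counts alone also left 1021 of all genes lower, moved the median of all genes from 0.01 to 0.09 and made 66.1% of calls rises, against 1548 rises in 3095 calls. Slc25a40 was also lost with total counts (adjusted p = 0.150), with no filter (0.0622) and in males alone (0.195). Slc25a1 passed with total counts (0.0231), the stricter filter (0.0459), DESeq2 (0.0483), limma-voom (0.0472) and without control replicate 4 (0.0490). Slc25a32 passed with total counts (0.0193), the stricter filter (0.0498) and sex as a covariate (0.0258), and Slc25a46 with DESeq2 (0.0411) and without control replicate 1 (0.0448). Leaving out each library in turn gave 2 to 4 members higher and 8 to 10 lower, 1129 to 1458 of all genes higher and 1093 to 1418 lower, 4 to 7 partner genes higher and 36 to 43 lower, and 3 to 4 pairs with separate ratios. The cause of these differences was not tested. No paired analysis was possible because the labels give no replicate numbers shared between genotypes. On simulated data with 4 libraries a group, a change of 1.5-fold was often missed. The altered genes were drawn at random from all tested genes, so this recovery is not that of the members. The simulation gave 154 calls against 3095 in the real data, and fewer calls make the Benjamini-Hochberg threshold stricter. Its counts were drawn with a spread that depended on level alone, so recovery in the real data may differ. Of the 16051 tested genes 6878 had a mean under 10 CPM, against 8 of the 42 tested members.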

Other observations

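Genes that use the cargo of the carriers were counted in a pair of lists. Of 12 tested genes for mitochondrial iron, heme and iron-sulfur use 5 fell and 0 rose, with a median log2 fold change of -0.28. Over all tested genes 9.64% changed in each direction, and of those with a mean of at least 100 CPM 22.4% fell. Alas1, which starts heme synthesis, fell by 0.56 on the log2 scale (adjusted p = 0.00261), and the ferritin heavy chain Fth1 fell by 0.50 (adjusted p = 0.00281). Aco1, the cytosolic aconitase, fell by 0.48 and the iron importer Slc11a2 by 0.37. The mitoferrin genes were not called in the same libraries.

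Of 16 genes of one-carbon, glycine and cofactor metabolism 6 fell and 1 rose, with a median of -0.08, where 9.64% of all genes changed in each direction. Nadk2, the mitochondrial NAD kinase, fell by 0.62 on the log2 scale (adjusted p = 0.000630), Nmnat3, an NAD synthesis enzyme, by 0.67, and Shmt2, the mitochondrial serine hydroxymethyltransferase, by 0.40. Gsr, the glutathione reductase, rose by 0.44 (adjusted p = 0.00683). Slc25a51, the NAD+ carrier, was not called beside them (-0.06 ± 0.07).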
